A study of Mus musculus with 6 samples.

Results

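The cells described here are cultured mouse muscle-derived stem/progenitor cells from old animals that held 2 or more unique molecular identifiers (UMIs, tags that count an RNA molecule once) of Cyba. They were taken from old replicates 2 and 3, among barcodes with at least 5000 UMIs and under 15% of UMIs from mitochondrially encoded genes. This gave 6915 Cyba cells among 20692 kept cells of these samples, 4063 in old replicate 2 and 2852 in old replicate 3. The whole series held 60325 cells kept by the same limits, from 62849 barcodes. Cells of the same sample with 0 Cyba UMIs served for comparison, 3172 in old replicate 2 and 6748 in old replicate 3. Because Cyba counts chose the cells, every Cyba value below is a description and carries no test.

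The 6 populations of the study were profiled by single-cell RNA sequencing of transcript 3′ ends in droplets, 3 of them from young animals and 3 from old ones. The populations were slowly adhering cells obtained by repeated preplating of digested skeletal muscle, grown on collagen in serum-rich proliferation medium. No genotype or treatment other than age is given, and the labels state neither the ages nor the sex or strain of the mice, nor the number of passages. The labels call the populations biological replicates, but do not say which mice each came from. P-values from fits with the sample as a block rest on how differences between Cyba cells and comparison cells vary from sample to sample. Whether that variation is between separate mice is thus not known.

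Cyba encodes p22phox, a small membrane protein that binds and stabilises the catalytic subunits of several NADPH oxidases, among them Cybb of phagocytes and the NOX1, NOX3 and NOX4 enzymes. These complexes pass electrons from NADPH to oxygen and so make superoxide or hydrogen peroxide, used in phagocytes to kill microbes and in other cells as signals. In skeletal muscle, NADPH oxidases are known as a source of reactive oxygen at the membranes of the fibre.

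Cyba lies on the minus strand of mouse chromosome 8, from 122424771 to 122432940 in GRCm38 (RefSeq, GRCm38.p6). The 250 bases before its start are shown because Cyba transcripts were almost lacking in 3 populations and carried by part of the cells in others. The window is chr8:122432941-122433190, minus strand, written 5′ to 3′ with the last base next to the start. Capitals mark matches to the GC box GGGCGG and to CAGCTG, a form of the E-box that muscle bHLH factors bind.
Cyba upstream: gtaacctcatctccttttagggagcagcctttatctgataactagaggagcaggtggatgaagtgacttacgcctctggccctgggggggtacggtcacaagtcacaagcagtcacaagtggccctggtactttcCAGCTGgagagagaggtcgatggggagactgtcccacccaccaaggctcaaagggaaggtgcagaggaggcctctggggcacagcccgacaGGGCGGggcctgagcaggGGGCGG
The window held 2 GC boxes, at 24 to 19 and 6 to 1 bases before the start, and 1 CAGCTG at 115 to 110 bases before it. Searched on both strands, GGGCGG was present in 32.7% and CAGCTG in 13.0% of the 32851 RefSeq windows of the same length. The TATA box letters TATAAA (in 12.4% of windows) were not found in it, nor was the AP-1 site in the form TGANTCA (6.75%), nor the other E-box form searched for, CACGTG (6.02%). It held 6 CpG dinucleotides, equal to the median of all windows.

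Cyba UMIs were counted 0, 1 and 1 times in the kept cells of young replicates 1, 2 and 3, and 378, 19386 and 13287 times in those of old replicates 1, 2 and 3. Scaled to the summed UMIs of each sample (counts-per-million, CPM), the young values became 0, 0.0051 and 0.0052 CPM and the old values 2.51, 108 and 72.2 CPM. The young and old values did not overlap, and old replicate 1 lay far below the other old populations. Cells with 2 or more Cyba UMIs made up 47.7% of old replicate 2 (95% Wilson interval 46.7% to 48.8%) and 23.4% of old replicate 3 (22.7% to 24.2%). Old replicate 1 held 93 such cells, or 0.939% (0.767% to 1.15%). The young samples held none among 8444, 10650 and 10633 cells, which allows shares of up to 0.0355%, 0.0282% and 0.0282%. Intervals and limits cover counting error only.

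Median depth of the kept cells lay between 13181 and 20111 UMIs over the 6 samples, and depth entered these shares. Median totals in old replicate 2 were 19135 UMIs in cells with no Cyba UMI, 19244 in cells with 1 and 21218 in the Cyba cells, and in old replicate 3 they were 12331.5, 13308 and 15666.5 UMIs. After each cell was thinned at random to 5000 UMIs, 34.4% of cells in old replicate 2 (33.4% to 35.4%), 23.5% in old replicate 3 (22.8% to 24.3%) and 1.26% in old replicate 1 (1.06% to 1.501%) still held a Cyba UMI. Barcodes with fewer than 5000 UMIs, which can hold debris and free RNA, had Cyba at 93.9 CPM in old replicate 2 and 94.1 CPM in old replicate 3, from 63 and 103 UMIs. The part of free RNA in cells with few Cyba UMIs was not tested. Old replicates 2 and 3 shared 27 cell barcodes, and 2 of these belonged to Cyba cells in both.

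Cyba was spread unevenly over the cells. In old replicate 2, 37.3% of cells had no Cyba UMI, compared with 12.8% had the same UMIs been shared out in proportion to each cell's depth. In old replicate 3 these values were 55.4% and 37.1%. At the limit of 2 or more UMIs that defines the Cyba cells, the observed shares were below the even spread. They were 47.7% compared with 63.3% in old replicate 2, and 23.4% compared with 28.8% in old replicate 3. At the other end, 25.2% of cells in old replicate 2 held 4 or more Cyba UMIs, compared with 20.8% under the even spread. For old replicate 3 these shares were 7.32% and 3.98%. The highest counts in a single cell were 24 and 55. In old replicate 1, 93 cells reached 2 Cyba UMIs, compared with 8.28 under the even spread.

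**Figure D1:**
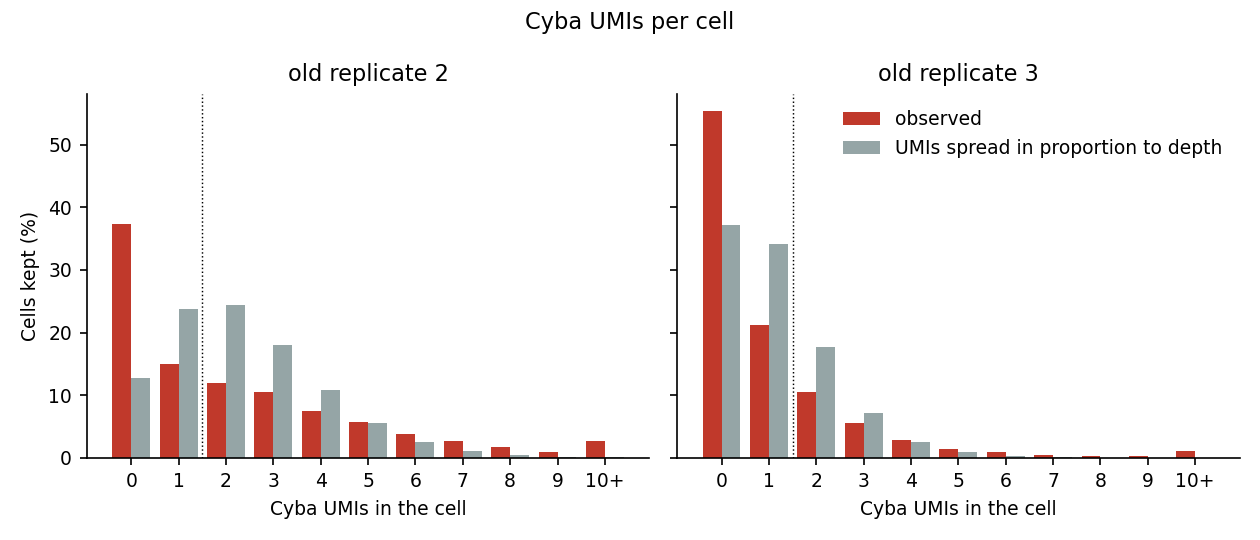
Share of kept cells (percent, y axis) by their number of Cyba UMIs (x axis) in old replicates 2 and 3. Red bars are observed cells, grey bars the shares given by the same UMIs spread in proportion to depth, and the dotted line is the lower limit for Cyba cells; cells without a Cyba UMI exceed the even spread in both samples (37.3% compared with 12.8%, and 55.4% compared with 37.1%).

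The ratio of variance to mean of Cyba in thinned cells, the Fano factor, was 1.48 in old replicate 2. This was above the value of 94.99% of the 659 genes of like mean level, whose median was 1.06. In old replicate 3 it was 1.56, above 97.2% of 848 such genes with the same median. Clusters, made within each sample without Cyba, held 1.08% of the variance of Cyba in old replicate 2 and 8.43% in old replicate 3, and the Fano factor within clusters was 1.46 and 1.42.

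In old replicate 2 the Cyba cells were found in every cluster. Thinned cells with a Cyba UMI made up between 29.7% and 39.6% of 8 of its 9 clusters. The highest share belonged to cluster 6, led by Pate14, Krt18 and Cdkn2b, and the lowest of these 8 to cluster 2, led by the mitotic genes Cenpf and Ccnb1. Cluster 0, led by the sarcomere genes Acta1, Mylpf and Tnnc1 and with a Myog UMI in 92.8% of its thinned cells, had 32.3%. The ninth, cluster 8, held 86 shallow cells (median 6560.5 UMIs) and 7 Cyba cells.

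Old replicate 3 differed more from cluster to cluster. Cluster 1, led by Myl4, Myh3 and Myh1, in which 98.2% of thinned cells had a Myog UMI, had the lowest share of thinned cells with a Cyba UMI, 10.3% (95% Wilson interval 8.57% to 12.4%). Clusters 5 and 6, in which 97.2% and 96.9% of cells had a Myog UMI, had 16.2% and 18.4%, and cluster 9, of 231 cells, 11.7%. The S and G2/M clusters 2, 3, 7 and 0 lay between 21.0% and 26.0%, and cluster 4, mostly of cells called G1, at 27.4%. Cluster 8 stood apart with 55.2% (50.2% to 60.1%). It held 384 cells, or 3.15% of the sample, but 22.1% of its Cyba UMIs and 279 of its Cyba cells, and it was led by Rpl39l, Igfbp4, Cck, Fbln2 and Timp3. Its median depth was 31663 UMIs and no doublet caller was run, so whether it holds droplets with more than 1 cell was not tested. It was left unnamed, with 6 of 13 fibro-adipogenic and 13 of 23 myogenic differentiation markers each found in at least 25% of its cells. For the genes and lists that moved most without cluster 8, values from old replicate 3 are given with and without it.

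**Figure D2:**
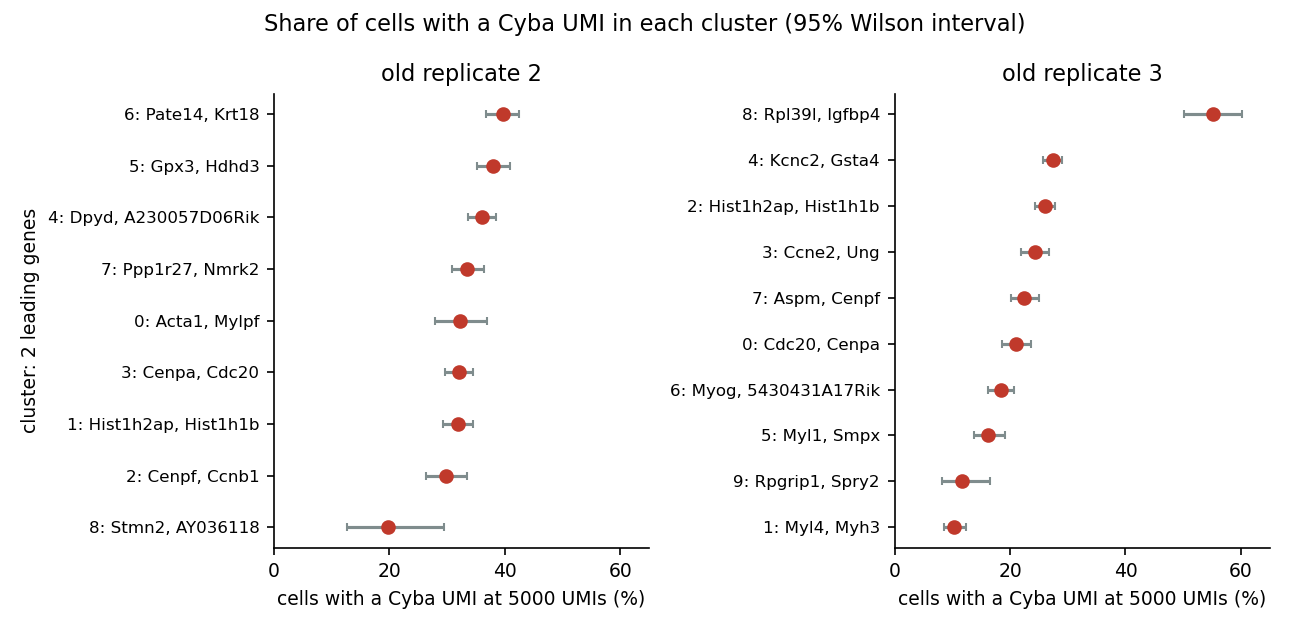
Share of cells with a Cyba UMI after thinning to 5000 UMIs (percent, x axis) in each cluster of old replicates 2 and 3, ordered by that share, with the cluster number and 2 leading genes on the y axis. Points are shares and bars 95% Wilson intervals; cluster 8 of old replicate 3 (55.2%) lies apart and the sarcomere-led cluster 1 of that sample is lowest (10.3%).

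To ask what else marked the Cyba cells, they were compared with cells of the same sample that had no Cyba UMI, drawn to equal numbers in narrow bins of total UMIs. This left 2905 cells of each class in old replicate 2 and 2520 in old replicate 3, with median depths of 19682 and 19674 UMIs, and 14798 and 14922.5 UMIs. Counts were summed by sample and class and fitted with the sample as a block. Levels of single genes in these sums are CPM scaled with edgeR's TMM factors. Sums over marker lists, levels by Cyba UMI class or by population, and levels in old replicate 1 are CPM without these factors. Differences are on the log2 scale with their standard error (SE). Of 15406 genes, none (0% higher and 0% lower) passed an adjusted p of 0.05 in edgeR's quasi-likelihood fit, p-values being adjusted by Benjamini and Hochberg's method, and the lowest adjusted p was 0.154. At an unadjusted p under 0.05 there were 593 genes, 312 higher in the Cyba cells (2.03% of genes) and 281 lower (1.82%). DESeq2 called 10 genes on the same sums, 1 higher (0.00775%) and 9 lower (0.0698%). With cells of 1 or more Cyba UMIs edgeR called 3 genes, all lower (0.0189%): Acta2, Tnnc2 and Myh8. With no filter on low counts it called 19 higher (0.0816%) and 14 lower (0.0601%).

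Gene by gene, the differences were only weakly alike in the samples. Across the 4068 genes with a mean log2 CPM of 5 or more, the log2 differences of the samples had a standard deviation of 0.11 in old replicate 2 and 0.24 in old replicate 3, and their Pearson correlation was 0.212. Genes are not independent replicates. Of all genes tested, 27.2% were higher and 24.4% lower in the Cyba cells of both samples, and the counts for gene lists below are to be read against these percentages.

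**Figure D3:**
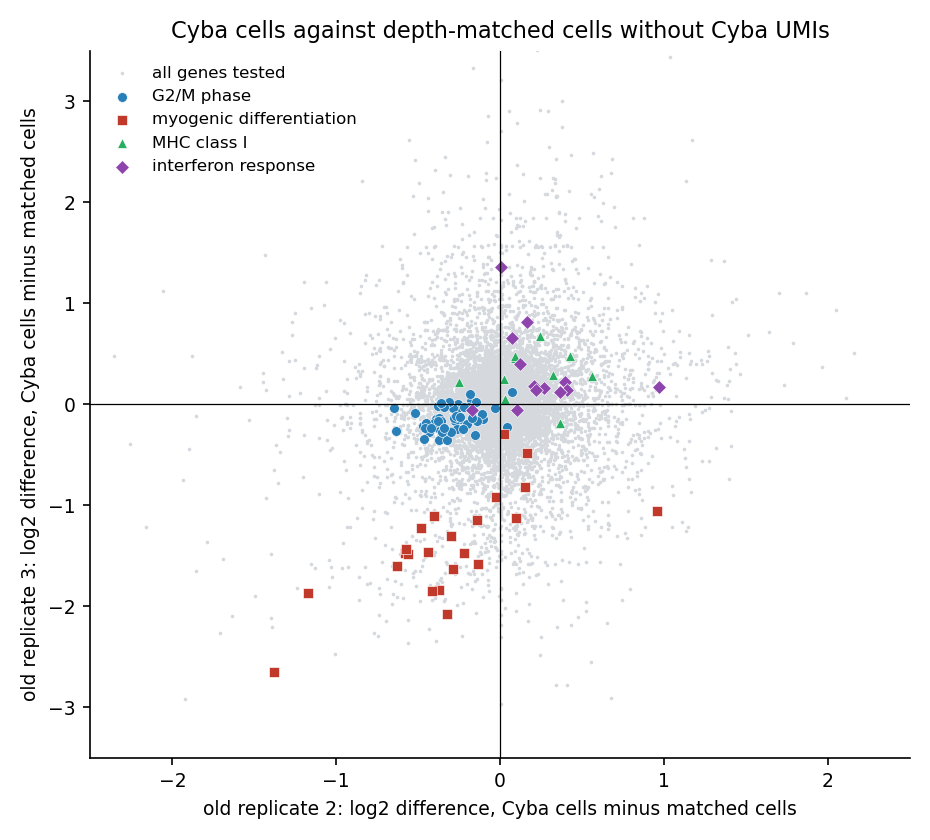
Log2 difference between Cyba cells and depth-matched cells without Cyba UMIs for each gene, in old replicate 2 (x axis) and old replicate 3 (y axis). Grey points are all genes tested (8 lie outside the axes) and coloured points 4 gene lists; 44 of 52 G2/M genes and 18 of 23 myogenic differentiation genes lie below 0 in both samples, and 8 of 10 MHC class I genes above 0 in both.

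The partners of p22phox did not pass the test. Of 16 other NADPH oxidase genes, 9 were abundant enough to be tested, none had an unadjusted p under 0.05, and their median log2 difference was 0.02. Nox4, the oxidase that needs only p22phox to work, was at 7.50 CPM in Cyba cells and 7.62 CPM in matched cells of old replicate 2, and at 2.58 and 1.09 CPM in old replicate 3 (log2 difference 0.43, SE 0.34). The higher value in old replicate 3 went with cluster 8: without its cells the difference there was 0.29 in place of 1.21. Nox1, another catalytic subunit, was at 1.55 and 1.67 CPM in old replicate 2 and at 0.606 and 0.557 CPM in old replicate 3. Cybb, the phagocyte catalytic subunit, and Nox3 had 0 counts in all 4 sums.

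Among the other subunits, Rac1, the small GTPase that activates several of these complexes, was at 258 and 254 CPM in old replicate 2 and at 237 and 209 CPM in old replicate 3. Cybc1, a chaperone of the complex, was at 14.4 and 14.98 CPM and at 7.81 and 7.30 CPM. The organizer subunits Ncf1 and Noxo1 stayed under 1 CPM in every sum. Over the 6 populations, the order of these genes was not that of Cyba: Rac1 lay between 209.5 and 288 CPM, and Nox4, at 0.0979, 3.66 and 10.6 CPM in young replicates 1 to 3 but 0.850, 8.10 and 1.92 CPM in old replicates 1 to 3, overlapped between the groups. Antioxidant genes had a fitted median of 0.03 but went apart between the samples. In old replicate 2, 17 of 24 were lower (median -0.05), and in old replicate 3, 5 of 24 were lower (median 0.11). At an unadjusted p under 0.05 there were 2, both higher. In 2 settings chosen after seeing the data this turned. At that level 6 were lower and 1 higher in cells with 0 Myog UMIs, and 5 lower and 1 higher when matched within clusters. Over all gene symbols, 622 were lower and 528 higher of 14567 in cells with 0 Myog UMIs. Matched within clusters, 384 were lower and 502 higher of 15313. The peroxiredoxin Prdx1 was at 2454 and 2505 CPM in old replicate 2 and at 3802 and 3371 CPM in old replicate 3.

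Since phagocytes carry much Cyba, macrophage markers were counted in the same sums. The 16 markers summed to 15.7 CPM in Cyba cells and 15.8 CPM in matched cells of old replicate 2, and to 8.96 and 7.196 CPM in old replicate 3. Tyrobp, C1qa, C1qb and C1qc had 0 counts, and Ptprc, Aif1 and Spi1 no more than 3. Endothelial markers summed to 1.84 and 1.81 CPM, and 2.96 and 3.01 CPM. The Cyba cells did carry muscle lineage genes: Myod1, the myogenic determination factor, was at 451 and 427 CPM in old replicate 2 and at 904 and 975 CPM in old replicate 3. Pax7, a factor of muscle stem cells, was at 21.7 and 21.0 CPM and at 36.6 and 33.1 CPM. None of 12 myogenic progenitor genes had an unadjusted p under 0.05, and their median was -0.02.

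Genes of muscle differentiation were lower in the Cyba cells of both samples, more so in old replicate 3. Of 23 genes tested, 18 were lower in both samples and none higher in both, and 4 had an unadjusted p under 0.05, all lower. Their median log2 difference was -0.32 in old replicate 2 and -1.46 in old replicate 3, compared with 0.00 and 0.01 over all genes. Acta1, the skeletal muscle actin, was at 205 CPM in Cyba cells and 303 CPM in matched cells of old replicate 2, and at 1011 and 2826 CPM in old replicate 3. Mylpf, a fast myosin light chain, was at 468 and 575 CPM, and at 3252 and 8026 CPM. Myog, the factor that starts terminal differentiation, went apart between the samples, at 172 and 161 CPM in old replicate 2 and at 562 and 1223 CPM in old replicate 3.

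Cells with a Myog UMI after thinning made up 14.6% of Cyba cells and 14.4% of matched cells in old replicate 2, and 35.5% and 49.7% in old replicate 3. The share of Myog cells was thus lower in the Cyba cells of old replicate 3 and about level in old replicate 2. Among cells with 0 Myog UMIs only, a comparison chosen after seeing the data, the median difference of the list was -0.07 and -0.18, and 10 of 20 genes were lower in both samples. Matched within clusters, also chosen after seeing the data, it was -0.44 and -0.10. Tnnc2, the fast troponin C, chosen after its values were seen, was at 11.6 and 26.2 CPM in old replicate 2 and at 257 and 941 CPM in old replicate 3 (log2 difference -1.55, SE 0.23, edgeR adjusted p = 0.989). It fell in cells with 0 Myog UMIs, by 1.26 (edgeR adjusted p = 0.00715), and over all alternatives its adjusted p ran from 0.00715 to 0.999995.

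Acta2, smooth muscle actin, which cultured myogenic cells also make, shared the lowest adjusted p of the main comparison with Myh8 and Cav3. It was at 265 CPM in Cyba cells and 394 CPM in matched cells of old replicate 2, and at 1119 and 1785 CPM in old replicate 3. The log2 differences were alike, -0.57 and -0.67, and the fitted value was -0.62 (SE 0.05, edgeR adjusted p = 0.154). DESeq2 called it on the same sums (adjusted p = 6.9e-07), as did edgeR with cells of 1 or more Cyba UMIs (adjusted p = 0.0246). Over all alternatives its adjusted p ran from 6.9e-07 to 0.999995. Across cells with 0, 1, 2, 3 to 4 and 5 or more Cyba UMIs, without depth matching, Acta2 stood at 415, 370, 359, 274 and 232 CPM in old replicate 2 and at 1743, 1358, 1199, 1096 and 782 CPM in old replicate 3. It was thus lower in each next class of both samples. Matched within clusters the difference was -0.62 in old replicate 2 but -0.10 in old replicate 3. Tagln, another smooth muscle gene, did not follow, at 1.17 and 0.5997 CPM and at 21.7 and 15.8 CPM, and rose in cells with 0 Myog UMIs (log2 difference 1.23, edgeR adjusted p = 0.00779). Without cluster 8 its difference in old replicate 3 was -0.20.

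**Figure D4:**
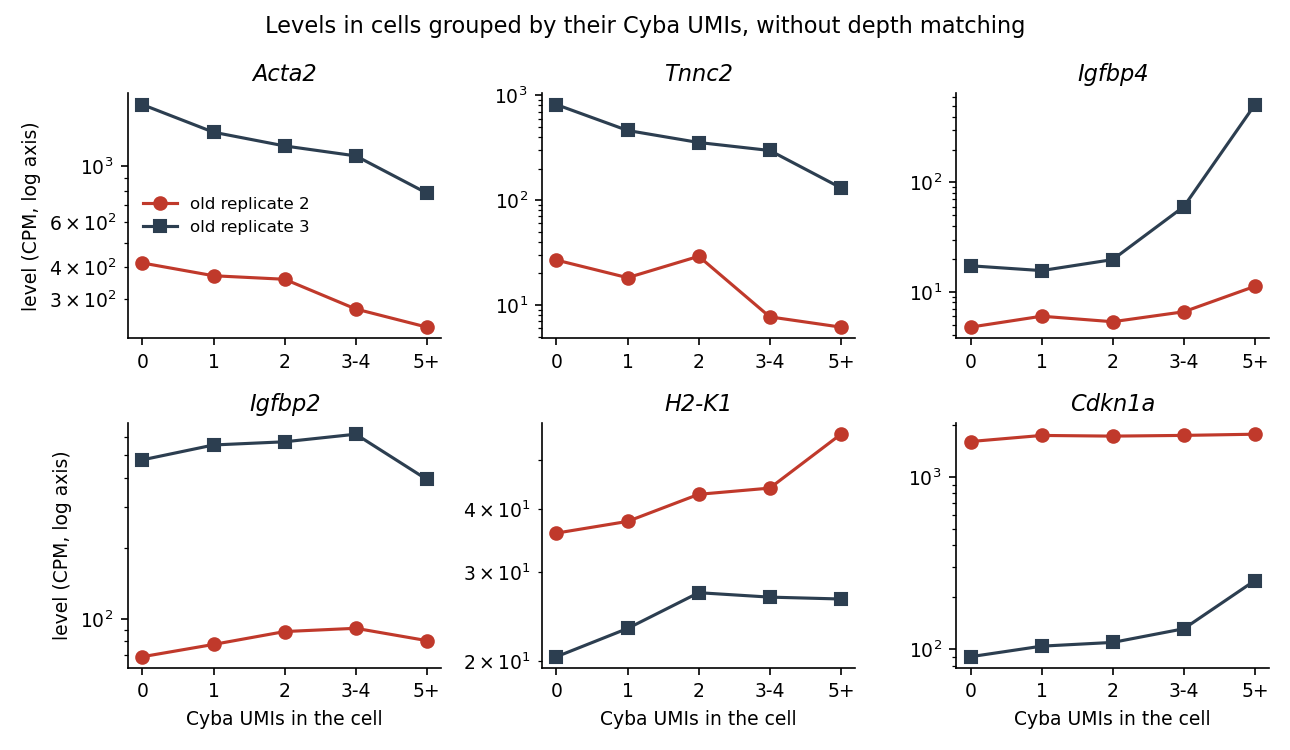
Levels of 6 genes (CPM, log y axes) in cells grouped by their Cyba UMIs (x axis), without depth matching, in old replicate 2 (red circles) and old replicate 3 (dark squares). Acta2 is lower in each next class of both samples (415 to 232 CPM and 1743 to 782 CPM), and Igfbp4 in old replicate 3 is high in cells with 5 or more Cyba UMIs (516 CPM).

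Just outside and just inside the limit of 2 UMIs, cells with 1 Cyba UMI and cells with 2 had Acta2 at 370 and 359 CPM in old replicate 2 and at 1358 and 1199 CPM in old replicate 3, and H2-K1 at 37.8 and 42.8 CPM and at 23.2 and 27.3 CPM. Across the classes of 0, 1, 2, 3 to 4 and 5 or more Cyba UMIs, Mylpf was at 596, 718, 694, 476 and 354 CPM in old replicate 2, lower than in cells without Cyba only from 3 UMIs on, and at 7000.5, 4768, 3823, 3588 and 1717 CPM in old replicate 3. Cells with 1 and with 2 UMIs had Gal, the galanin gene, at 0.391 and 0.726 CPM and at 304 and 438 CPM. Cells with 1 Cyba UMI numbered 1278 in old replicate 2 and 2579 in old replicate 3, and those with 2 numbered 1017 and 1290.

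Mitotic genes were lower in the Cyba cells of both samples. Of 52 genes of G2 and M phase, 44 were lower and 1 higher in both samples, and 29 had an unadjusted p under 0.05, all lower (1.82% of all genes were lower at this level). Their median log2 difference was -0.30 in old replicate 2 and -0.16 in old replicate 3. Ube2c, a ubiquitin-conjugating enzyme of mitotic exit, was at 226 and 279 CPM in old replicate 2 and at 893 and 1069 CPM in old replicate 3 (log2 difference -0.28, SE 0.05, edgeR adjusted p = 0.825). Top2a, the topoisomerase of dividing cells, chosen after its values were seen, was at 92.5 and 124 CPM and at 175 and 206 CPM. The share of thinned cells called G2/M was 23.3% in Cyba cells and 27.1% in matched cells of old replicate 2, and 42.6% and 47.9% in old replicate 3. This direction turned without depth matching, where the share called G2/M was on average 1.21 percentage points higher in the Cyba cells and Ube2c had a log2 difference of 0.038. In cells with 0 Myog UMIs, 19 of the 52 genes passed the threshold, all lower (0.275% of 14571 genes were called lower there), among them Top2a at -0.43 (edgeR adjusted p = 0.00301) and Ube2c at -0.33 (edgeR adjusted p = 0.015). Matched within clusters, which separate the cycle phases, the medians were 0.00 and -0.12 and no member was called, and among cells called G1 Top2a was at 0.0013.

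S phase genes did not behave alike in the samples. All 42 were lower in the Cyba cells of old replicate 2 (median -0.28), whereas 35 were higher in those of old replicate 3 (median 0.12). In cells with 0 Myog UMIs the medians were -0.25 and -0.03, with 26 lower in both samples and 17 lower at an unadjusted p under 0.05. Over all 14567 gene symbols of that setting, 4012 were lower in both samples and 622 lower at that level. Matched within clusters the medians of the list were -0.04 and 0.03. Pcna, the clamp of the replicating polymerase, was at 80.8 and 102 CPM in old replicate 2 and at 181 and 156 CPM in old replicate 3. Cells called S made up 5.13% and 7.64% in old replicate 2, and 17.6% and 13.7% in old replicate 3. Taking S and G2/M cells together, 28.4% of Cyba cells and 34.7% of matched cells were called cycling in old replicate 2, and 60.2% and 61.5% in old replicate 3.

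Inhibitors of cyclin-dependent kinases went in both directions. Cdkn1a, which encodes p21, was at 1669 and 1539 CPM in old replicate 2 and at 146 and 113 CPM in old replicate 3 (log2 difference 0.24, SE 0.07, edgeR adjusted p = 0.989). Cdkn2a, the gene of p16 and p19, was at 34.3 and 25.2 CPM and at 556 and 499 CPM (log2 difference 0.29, SE 0.08, edgeR adjusted p = 0.989). Cdkn2d, the gene of another inhibitor of the same family, was lower, at 42.4 and 51.5 CPM and at 93.1 and 112 CPM, and fell in cells with 0 Myog UMIs (log2 difference -0.32, edgeR adjusted p = 0.0253). Thinned cells with a Cdkn1a UMI made up 96.6% and 93.7% in old replicate 2, and 24.4% and 16.8% in old replicate 3. For Cdkn2a these shares were 13.6% and 10.2%, and 89.3% and 87.4%. With 2 samples, the smallest two-sided exact p such shares can reach is 0.5, and they were not tested.

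Of 17 genes of the secretory phenotype list tested, 9 were higher and 2 lower in both samples, and 5 had an unadjusted p under 0.05, all higher. Timp2, an inhibitor of matrix proteases and by its mean over both samples the most abundant named member, was at 1292 and 1179 CPM in old replicate 2 and at 526 and 432 CPM in old replicate 3, where its log2 difference was 0.28 with and 0.12 without cluster 8. Igfbp5, an abundant member of the list that binds insulin-like growth factors, differed in direction between the samples, at 1242 and 1178 CPM and at 279 and 294 CPM. The following genes were chosen after their values were seen. Igfbp2, of the same family, was at 88.5 and 63.7 CPM and at 626 and 495 CPM (log2 difference 0.41, SE 0.06, edgeR adjusted p = 0.634). Igfbp3 was at 154 and 118 CPM and at 76.3 and 62.1 CPM, and Igfbp6 at 4.78 and 3.30 CPM and at 49.2 and 31.6 CPM, a log2 difference of 0.64 in old replicate 3 that was 0.20 without cluster 8.

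Several of these genes passed the threshold in alternatives. With no filter on low counts, in all matched cells, edgeR called Igfbp2 (adjusted p = 0.0136), Igfbp6 (0.0159), S100a16 (0.0128), H2-K1 (0.045) and Selenom (0.0487), all higher. Matched on depth within clusters, edgeR called 9 genes higher (0.0588% of genes) and 0 lower, among them Igfbp2, Igfbp3, Igfbp4, H2-K1, S100a16 and Mmp2. In cells with 0 Myog UMIs it called 17 higher (0.117%), among them Igfbp2, Igfbp3, Igfbp6, H2-K1, S100a16, Mmp2, Selenom, Bst2, Gal and Stmn2, and 40 lower. Igfbp2 rose by 0.34 (SE 0.04, edgeR adjusted p = 0.0302) within clusters and by 0.32 (SE 0.04, edgeR adjusted p = 0.00715) without Myog cells. The settings within clusters and without Myog cells were chosen after seeing the data, other alternatives gave adjusted p-values up to 0.999995, and the genes called were named from their results. The common biological coefficient of variation was 0.094 in the main fit, 0.037 within clusters and 0.048 without Myog cells.

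Igfbp4 rested partly on cluster 8 of old replicate 3, and Mmp2 was higher in the Cyba cells of that sample only with this cluster. The settings that called Mmp2 higher, within clusters and without Myog cells, both included cluster 8. Igfbp4 was at 6.96 and 4.26 CPM in old replicate 2 and at 104 and 30.9 CPM in old replicate 3, a difference of 1.76 there that was 0.67 without cluster 8. Mmp2, a gelatinase, was at 3.57 and 1.56 CPM and at 7.65 and 1.22 CPM, but without cluster 8 it was at 0.0268 and 0.0807 CPM in old replicate 3. Col1a2, a fibrillar collagen chain, was at 7.87 and 4.89 CPM and at 31.1 and 5.75 CPM, and its difference in old replicate 3 went from 2.43 to -0.72. The fibro-adipogenic list as a whole summed to 508 and 517 CPM in old replicate 2 and to 400 and 272 CPM in old replicate 3. Its median difference in old replicate 3 was 1.28 with and 0.41 without that cluster.

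Krt18, a keratin of simple epithelia, chosen after its values were seen, stood out on its own. It was at 9.04 CPM in Cyba cells and 3.36 CPM in matched cells of old replicate 2, and at 18.2 and 8.97 CPM in old replicate 3 (log2 difference 1.22, SE 0.14, edgeR adjusted p = 0.451). DESeq2 called it (adjusted p = 0.0039). It was at 3.65, 4.22, 4.45, 9.50 and 14.3 CPM across the Cyba UMI classes of old replicate 2, and at 8.47, 12.7, 16.4, 16.6 and 13.4 CPM across those of old replicate 3. Over the populations, young replicates 1 to 3 had it at 0.0376, 0.0051 and 0.0052 CPM and old replicates 1 to 3 at 0.399, 7.12 and 11.5 CPM. As for Cyba, the groups did not overlap and old replicate 1 was the lowest old sample, from 60 counts. The share of all genes without such overlap was not counted, so this likeness is a description only.

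Class I antigen presentation genes were higher in the Cyba cells. Of 10 genes, 8 were higher and 0 lower in both samples, and 3 had an unadjusted p under 0.05. The H2-K1 heavy chain was at 45.8 and 34.1 CPM in old replicate 2 and at 29.8 and 21.4 CPM in old replicate 3 (log2 difference 0.45, SE 0.08, edgeR adjusted p = 0.825). B2m, the light chain, was at 162 and 153 CPM and at 148 and 108 CPM. H2-K1 rose within clusters, by 0.40 (SE 0.05, edgeR adjusted p = 0.0302). Of 13 interferon response genes, 11 were higher and 1 lower in both samples, with medians of 0.21 and 0.17, but in cells with 0 Myog UMIs 4 of 12 were higher in both. Bst2, an antiviral membrane protein, was at 59.2 and 45.9 CPM and at 49.6 and 45.7 CPM, and rose in cells with 0 Myog UMIs by 0.38 (SE 0.06, edgeR adjusted p = 0.0164).

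The remaining lists had few or no members at an unadjusted p under 0.05. The medians of the p53 target, glycolysis, heat shock and mitochondrially encoded genes lay between -0.03 and 0.01, and the p53 protein gene Trp53 was at 133 and 137 CPM and at 154 and 143 CPM. The mitochondrially encoded genes differed by sample, with 3 of 13 lower in old replicate 2 (median 0.04) and 13 of 13 lower in old replicate 3 (median -0.08). TGF-beta response genes had a median of -0.05 in old replicate 2 and 0.43 in old replicate 3 (-0.02 without cluster 8), with 2 higher and 2 lower of 15 at that level. Extracellular matrix genes had medians of -0.16 and 0.39 (0.20 without cluster 8), with 12 of 14 lower in old replicate 2 and 2 of 14 lower in old replicate 3. AP-1 genes had medians of 0.03 and 0.14 (0.0037 without cluster 8). Of the surface markers, Ly6a differed in direction between the samples and Cd34 did not. Thinned cells with a Ly6a UMI made up 30.9% of Cyba cells and 35.1% of matched cells in old replicate 2, but 12.7% and 7.10% in old replicate 3. For Cd34 these shares were 15.8% and 14.0%, and 10.2% and 4.88%, and the log2 difference of Cd34 in old replicate 3 was 1.28 with and 0.74 without cluster 8. Genes per thinned cell differed little, with medians of 2069 and 2089, and 1942.5 and 1949.

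Old replicate 1, which the choice of cells did not use, held too few cells with 2 Cyba UMIs, so 226 of its cells with 1 or more were set beside 226 at similar depth with none. With 1 sample there is no test, and its gene list and counting version differ from those of old replicates 2 and 3. There muscle genes were higher in the cells with Cyba. Of the 23 differentiation genes, with no filter on counts, 21 were higher, none was lower and 2 had no counts. Of the 18 with 20 or more counts, 18 were higher, compared with 56.2% of all 10407 genes with such counts. In old replicates 2 and 3, 18 of the 23 were lower in the Cyba cells of both. Myog was at 19.9 and 0.277 CPM (72 and 1 counts), and Tnnt2, the cardiac troponin T, at 180.0 and 179 CPM. Acta2 was at 125 and 16.6 CPM (453 and 60 counts), where it was lower in the Cyba cells of old replicates 2 and 3. Des was at 75.5 and 17.1 CPM and Myod1 at 156 and 80.2 CPM, both also higher in old replicate 2 (Des 89.8 and 84.1 CPM) and lower in old replicate 3 (Des 405 and 492 CPM). The counts lay in cells of different Cyba levels: the 226 cells with 1 or more Cyba UMIs held 178 Acta1 counts and 245 Ttn counts, and the matched cells with 2 or more held 176 and 113. The sarcomere-led cluster 5 of this sample held 22 cells and 2 Cyba UMIs, both in 1 cell. Whether that 1 cell carried most of the sarcomere gene counts was not tested. Cluster 4, led by Serpinf1, Igfbp2 and Myod1, held 14.3% of the cells and 45.8% of the Cyba UMIs, and clusters 0 and 3 held another 20.9% and 17.2% of these UMIs. Igfbp3 was higher as in the other old samples, at 57.2 and 24.1 CPM, as was H2-K1 at 94.5 and 84.4 CPM. Igfbp2, at 85.7 and 93.5 CPM, Igfbp4, at 23.8 and 37.1 CPM, and Cdkn2a, at 78.0 and 123 CPM, were lower, and Krt18 had no counts in either class. Of 52 G2/M genes 40 were lower, with a median of -0.08, compared with 43.8% of all 10407 genes with 20 or more counts. With cells of 2 or more Cyba UMIs, fewer still, directions turned, also among G2/M genes. Igfbp2 was at 86.9 and 43.9 CPM, Ube2c at 419 and 369 CPM and Top2a at 397 and 321 CPM, each higher in the cells with Cyba. The count of 40 of 52 G2/M genes describes cells with 1 or more Cyba UMIs only. With 2 or more, most of the 52 were higher in the cells with Cyba and a minority lower, so the direction of the list turned. The share of all genes that were higher in that setting was not counted.

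Of the 20 nearest protein-coding genes, 10 on each side, 18 were in the count tables. In 1 of the 18 old replicates 2 and 3 were both above every young sample, and in 4 both were below. The same shares over all genes were not counted, so these counts only describe the neighbours. The 1 was Snai3, a gene of the Snail zinc finger family 21263 bases away, at 0.0903, 0.664 and 0.0891 CPM in young replicates 1 to 3 and at 0.166, 1.01 and 0.804 CPM in old replicates 1 to 3. Mvd, an enzyme of sterol synthesis whose gene lies 655 bases from Cyba on the side of higher coordinates, had 12.1, 11.7 and 11.3 CPM in young replicates 1 to 3. It had 7.44, 13.9 and 8.49 CPM in old replicates 1 to 3. Il17c, a cytokine gene 1131 bases to the other side, stayed under 0.1 CPM in every sample. Zc3h18, 7405 bases away on the side of Il17c, was at 36.4, 43.8 and 60.9 CPM and at 54.0, 31.2 and 29.0 CPM. Between Cyba cells and matched cells, 14 neighbours were tested, none was called, and 1 had an unadjusted p under 0.05: Slc7a5, an amino acid transporter, at -0.36 (SE 0.08, edgeR adjusted p = 0.989).

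**Figure D5:**
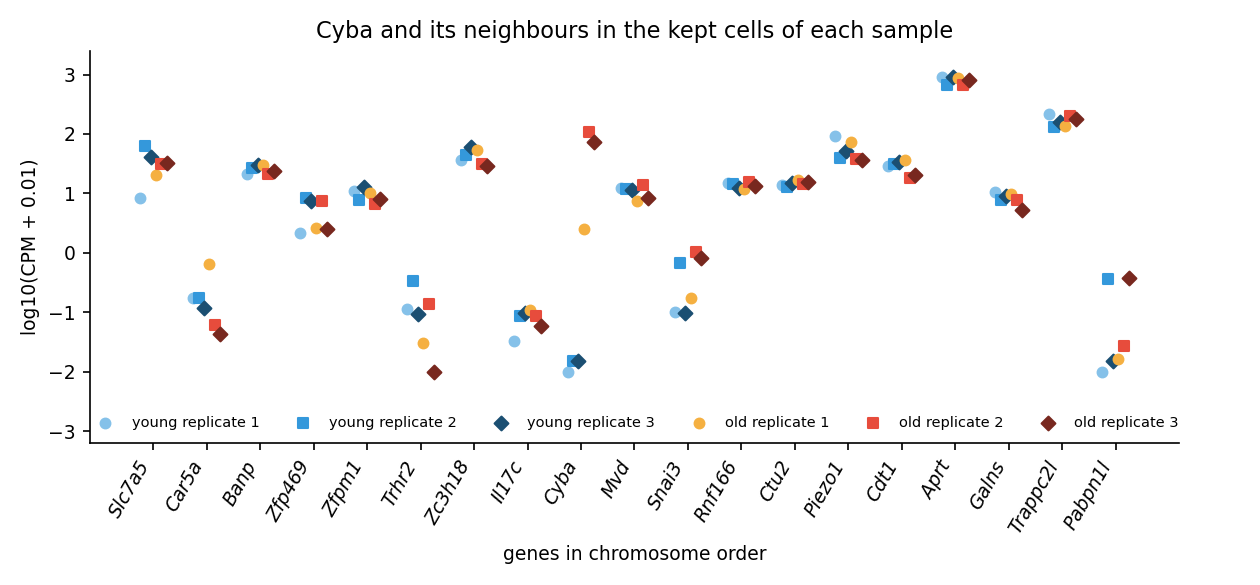
Levels of Cyba and of the 18 neighbouring genes in the count tables (log10 of CPM plus 0.01, y axis), in chromosome order (x axis), 1 point per sample, blue for young and orange to dark red for old. Cyba lies between 0 and 0.0052 CPM in the young samples and at 108 and 72.2 CPM in old replicates 2 and 3. Snai3 is the other gene with both of these old samples above every young one, but its old replicate 1 (0.166 CPM) lies below young replicate 2 (0.664 CPM). The share of all genes with such a pattern was not counted.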

How the data were processed

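The authors deposited UMI counts per gene and barcode for 6 samples, made with Cell Ranger 7.0.0 (young and old replicate 1) or 7.2.0 (the other 4), per the file headers; the genome was mm10, per the submitters' processing notes. From these counts, barcodes with at least 5000 UMIs and under 15% mitochondrial UMIs were kept, and no doublet caller was run. Cyba cells held 2 or more Cyba UMIs. They were drawn with cells of 0 Cyba UMIs in bins of 0.1 log2 total UMIs, summed by sample and class, and tested without Cyba with edgeR 4.0.16 (quasi-likelihood, TMM scaling, filterByExpr, Benjamini-Hochberg threshold 0.05) in R 4.3.3. Both classes of a sample come from the same culture and library, so the sample was a block by construction, leaving 1 residual degree of freedom. DESeq2 1.42.0 was an alternative. Clusters (Leiden, resolution 0.5, within each sample, without Cyba) and phases came from scanpy 1.11.5. Clusters were made from all UMIs of each cell. Unless said otherwise, phases, cell-state shares and the shares by cluster used cells thinned to 5000 UMIs. The shares of cells by number of Cyba UMIs, and those under the even spread, used all UMIs except where thinning is named. The edgeR fit was run on simulated sums with known changes, and the other steps were not tested in this way. Upstream sequence came from RefSeq.

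The cells, gene lists and tests were chosen with earlier results of these data known. The rule for named genes took called genes of the largest change, up to 4 members of each list with the highest mean CPM, NADPH oxidase genes with 20 or more counts and the 6 genes of the cell-state measures. Leading genes of clusters, neighbours of Cyba and genes named for few or no counts were also given. Any other gene outside that rule was chosen after its values were seen. Among these are H2-K1, Gal, Col1a2, Tnnt2 and Ttn, where this is not said beside their values. In total 12 planned and 3 later alternatives were tried.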

Additional observations from a re-analysis of the deposited data

How the results depend on the processing

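Without the replicate block (the sample) edgeR called 0 genes, as with it, with 5 at an unadjusted p under 0.05 in place of 593. The number called was 3 with cells of 1 or more Cyba UMIs, 10 with DESeq2 and 33 with no low-count filter. In settings chosen after seeing the data it was 57 in cells with 0 Myog UMIs, 9 when matched within clusters and 0 without cluster 8 of old replicate 3. The other alternatives called 0. Leaving out a sample left 1 pair with no residual degree of freedom and so gave no count. For 34 genes, 470 of 509 alternative values kept their direction and side of the threshold, 35 passed it and 4 reversed: Ube2c at 0.038 and Birc5 at 0.0093 without depth matching, and Birc5 at 0.016 and Top2a at 0.0013 in cells called G1. The cause was not tested. The share of Cyba cells in old replicates 1, 2 and 3 was 2.29%, 62.7% and 44.6% with 1 or more UMIs, 0.121%, 25.2% and 7.32% with 4 or more, and 0.212%, 12.6% and 6.49% after thinning, and 26.5% in old replicate 3 among cells of at least 10000 UMIs. Averaged over both samples, Cyba cells differed from the others by 1.76 percentage points in cycling and 1.21 in G2/M without depth matching (-3.82 and -4.51 with it, so both turned), by -3.29 in G2/M with 1 or more UMIs, and without thinning by 2.55 in Pax7, 3.73 in Cdkn2a and 8.20 in Cd34.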
